A study of Mus musculus with 6 samples.

Results

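Wnt pathway genes were followed in the epithelium of the mouse trachea, which sulphur dioxide injures and basal stem cells rebuild. The members are 40 named genes of the pathway, and every probe set (a group of oligonucleotides on the array that reports one transcript) annotated with exactly 1 of these symbols was taken. Of the 40 genes, 39 had such a probe set, with 94 probe sets in all, among 18193 genes on the array. Tcf7 had none of its symbol alone and was not analysed here. The members comprise 9 ligand and ligand-processing genes, 12 receptor genes, 10 genes of the intracellular pathway and 8 antagonists and feedback genes.

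Male C57Bl/6 mice aged 8 to 12 weeks either breathed SO2 at 500 ppm for 4 h and were killed 48 h later, hereafter 48 hours post injury (48 hpi), or served as uninjured controls. Each group had 3 arrays, and each array held RNA from the pooled tracheal epithelium of 4 animals after removal of CD45+ leukocytes. The labels name no transgene or further agent. The epithelium was peeled off after Dispase treatment. Because pools rather than single animals were hybridized, the spread between arrays is that between pools.

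Wnt ligands are lipid-modified secreted proteins that bind Frizzled receptors and their Lrp co-receptors. In the canonical branch, binding stops a destruction complex from degrading beta-catenin, which then enters the nucleus and activates genes with Tcf and Lef factors; other branches act on cell polarity and movement without beta-catenin. In the airway the pathway is known for its part in lung specification and in basal cell proliferation and fate.

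At 48 hpi, 15 of the 39 members were lower than in control epithelium and 1 was higher by limma with an adjusted p below 0.05, the threshold for a call throughout. The porcupine acyltransferase gene Porcn and the R-spondin receptor gene Lgr6 had the largest changes, 5.81-fold and 5.27-fold lower. Lower members made up 38.5% of those measured, whereas 17.5% of all genes were lower and 19.4% were higher. The members were chosen with earlier results of these data known, so the shares are a description and not a test. The median change of the members was -0.22 on the log2 scale, against -0.02 over all genes. The receptor genes held 7 of the 15.

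Arrays of the 2 groups did not overlap for 20 members with a lower mean at 48 hpi and for 4 with a higher mean. Over all genes, 25.1% lay lower without overlap and 25.4% higher without overlap. The 15 members called lower were all among the 20. With 3 arrays against 3, an exact two-sided permutation test of a single gene cannot give a p below 0.1, so the calls rest on the limma fit across all genes. Of the 39 members, 35 exceeded background in at least 1 group. Background was the level that 95% of probe sets for odorant, vomeronasal and trace amine receptors stayed under, 4.94 in control and 4.81 at 48 hpi on the log2 scale. Wnt6, Lef1, Sfrp2 and Wif1 did not exceed it. Of the 35 members above background, 15 were lower and 1 higher, against 2873 lower and 3387 higher among 12272 such genes.

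**Figure D1:**
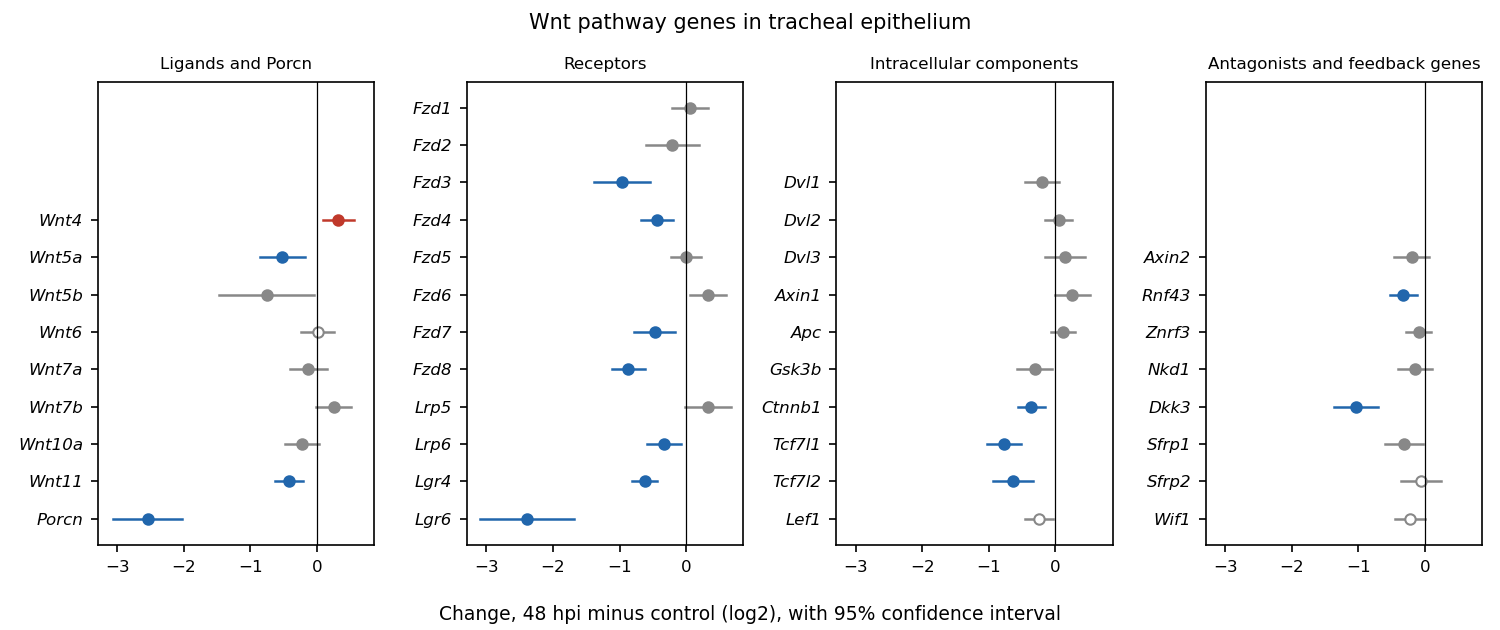
Change of each measured Wnt pathway gene at 48 hpi minus control (horizontal axis, log2), by role, with points for the limma estimate, bars for the 95% confidence interval, blue for lower, red for higher and grey for not called, and open symbols for genes not above background in either group. Porcn and Lgr6 lie at -2.54 and -2.40, and Wnt4 at 0.32 is the sole member called higher.

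The samples carried the markers of airway epithelium, and 10 of 10 general epithelial markers exceeded background in both groups. Of 19 markers of ciliated cells, 15 were lower at 48 hpi (for example Cdhr4 by 3.33), and their summed linear level ranged from 3960 to 7310 in control arrays and from 2850 to 3560 at 48 hpi. Of 16 secretory markers, 11 were lower and 2 higher, with sums of 165000 to 167000 in control and 69600 to 119000 at 48 hpi. Basal cell markers were split, with 5 of 14 called higher (for example Krt14 by 3.18) and 2 called lower, Ngfr with a change of -0.66 and Pdpn with a change of -0.35. Of the 14, 6 had a change below 0, Trp63 among them at -0.34 and not called, and the sums were 18700 to 19900 in control and 23500 to 26800 at 48 hpi. Of 11 fibroblast markers, 1 exceeded background in control and 4 did at 48 hpi. Dcn, the brightest, was called lower (-1.85) and sets the list's sums of 1250 to 1730 in control and 398 to 856 at 48 hpi, but it was the one marker with a change below 0. Vim was called higher (0.63), Col3a1 changed by 1.04 and was not called, and Col1a2 and Pdgfra stayed within background. Of 16 leukocyte markers, 7 exceeded background in at least 1 group and 3 were called lower. Their sums of 14500 to 17500 and 1920 to 7380 were mostly Lyz2, with log2 levels of 13.85, 13.60 and 13.87 in control and 12.35, 10.99 and 8.57 at 48 hpi, while Ptprc, which encodes CD45, was within background. Of 8 cartilage markers 1 was lower (Chad, by 2.68), with sums of 2990 to 4100 and 383 to 974, and Chad made up most of the sum. The 2 of 7 smooth muscle and 2 of 5 nerve markers called lower were within background in both groups. None of 7 endothelial markers was called by limma, by the methods' t-test or at an unadjusted p below 0.05. The part of these shifts in the changes of the Wnt genes was not tested. In whole epithelium, fewer cells of a type and less RNA per cell cannot be told apart. Replicate 3 at 48 hpi stood slightly apart, with correlations of 0.990 and 0.992 to the other injured arrays, which correlated at 0.996 with each other. Without it, 14 members were called lower and none higher, and Wnt4 was then not called. Control replicate 1 also stood slightly apart, at 0.993 and 0.992 to the other controls, which correlated at 0.996 with each other. Without this control array, 15 members were called lower and 1 higher, Lrp5 rather than Wnt4.

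Among the ligands and their processing enzyme, 3 of 9 genes were lower, 1 was higher, and the median change was -0.22. The shares were 33.3% lower and 11.1% higher, against 17.5% and 19.4% of all genes. Porcn encodes the endoplasmic reticulum enzyme that attaches the lipid Wnt proteins need for secretion and receptor binding. Its log2 level in control was 10.16, 10.30 and 9.85 in replicates 1, 2 and 3, and at 48 hpi it was 7.76, 7.90 and 7.03. Every injured pool lay far below every control pool, and replicate 3 was the lowest. Porcn fell by 2.54 (SE 0.23, adjusted p = 0.000139 by limma), with a 95% interval of -3.06 to -2.02. Without the third injured array the change was -2.27. The gene has a single probe set, so this value has no second measurement on the array.

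Wnt4, a ligand with roles in branching and epithelial differentiation, was the sole member called higher on the probe set used. Control arrays gave log2 levels of 10.54, 10.53 and 10.50, and injured arrays gave 10.81, 10.71 and 11.02. The control values were close together and all injured values lay above them. The rise was 0.32 (SE 0.10, adjusted p = 0.0373 by limma), a 1.25-fold difference. Leaving out any 1 of 5 arrays, all except replicate 2 at 48 hpi, ended the call, with adjusted p of up to 0.104 and changes between 0.23 and 0.39. A further probe set for Wnt4 changed by 0.14 and was not called.

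Wnt11 and Wnt5a, ligands best known for beta-catenin-independent signalling, were both lower and close to background. For Wnt11 the log2 levels were 5.55, 5.52 and 5.35 in control and 5.03, 5.06 and 5.07 at 48 hpi. The injured arrays were nearly alike and sat below the controls without overlap. Wnt11 fell by 0.42 (SE 0.09, adjusted p = 0.00717 by limma). For Wnt5a the control levels were 4.97, 4.80 and 5.35 and the injured levels 4.36, 4.62 and 4.58. The highest injured value was below the lowest control value, and the mean at 48 hpi was within background. Wnt5a fell by 0.52 (SE 0.15, adjusted p = 0.0265 by limma), and the call was lost without control replicate 1 or control replicate 3, with changes of -0.64 to -0.36 over the 6 fits that left out an array.

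The sequence before a start of Wnt11 is printed because it held the core motif of Tcf and Lef factors. Among called members above background with a RefSeq promoter, no other gene held it there. The other Wnt11 promoter, at chr7:98838595-98838844, had no match. RefSeq promoters were found for 24 of the 39 members, 33 promoters in all. The core CTTTGA was searched on both strands in the 250 bases before each start, where a match is a description of letters and not a binding site. It was present in 5 of the 33 member promoters (15.2%) and in 13.8% of all 32851 promoters of the RefSeq table. Among promoters of members called lower, 1 of 13 held it (7.69%), and among those of members not called, 4 of 19 did (21.1%). These 250 bases lie at chr7:98834862-98835111 on the + strand of GRCm38.p6, and capitals mark the core, which reads on the opposite strand.
Wnt11 promoter: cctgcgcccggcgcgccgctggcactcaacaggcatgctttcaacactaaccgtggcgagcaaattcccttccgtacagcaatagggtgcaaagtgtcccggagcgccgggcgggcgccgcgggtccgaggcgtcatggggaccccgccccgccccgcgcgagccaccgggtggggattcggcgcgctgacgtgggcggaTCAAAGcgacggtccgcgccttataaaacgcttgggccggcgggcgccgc

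The other 5 ligands were not called. Wnt7b, a ligand of the embryonic lung epithelium, had mean log2 levels of 8.32 in control and 8.57 at 48 hpi, and its change was 0.25 (95% interval -0.01 to 0.52). For Wnt5b the change was -0.75 with a wide interval of -1.47 to -0.03 and an adjusted p of 0.097 by limma, and its arrays overlapped between the groups. That value rested on single arrays, at -0.455 without 48 hpi replicate 3, -0.476 without control replicate 2 and -1.003 without control replicate 1, when it was called. It comes from an x probe set, which can also detect related sequences, and the other Wnt5b probe set, within background, changed by -0.30. Wnt10a and Wnt7a changed by -0.22 and -0.12. Wnt6, within background in both groups, changed by 0.01.

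Receptor genes had a median change of -0.39, and 7 of 12 were called lower (58.3%, against 17.5% of all genes). None was called higher by limma; at an unadjusted p below 0.05, 1 was higher, and after Benjamini-Hochberg adjustment of the methods' t-test 0 were higher and 4 lower. The largest fall was in Lgr6, which encodes a receptor for R-spondins (secreted proteins that raise Frizzled levels at the cell surface) and is known as a marker of epithelial stem cells in skin. Its log2 levels were 10.38, 10.93 and 10.34 in control and 8.49, 8.57 and 7.40 at 48 hpi. The injured pools were all below the controls, with replicate 3 again the lowest. Lgr6 fell by 2.40 (SE 0.31, adjusted p = 0.000685 by limma), with a 95% interval of -3.10 to -1.69. A further Lgr6 probe set fell by 2.08, and without the third injured array the change on the probe set used was -2.02.

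Lgr4, the R-spondin receptor with the broadest expression in epithelia, fell by less. Its control levels were 9.70, 9.58 and 9.65 and its injured levels 8.99, 9.04 and 9.05. Both groups were tight and well separated. The fall was 0.62 on the log2 scale (SE 0.08, adjusted p = 0.000781 by limma), which is 1.53-fold.

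Of the 8 Frizzled genes, which encode the receptors that bind Wnts, 4 were lower. Fzd8 gave 6.89, 6.95 and 7.14 in control and 6.18, 6.22 and 5.98 at 48 hpi. No injured array reached the control range. Fzd8 fell by 0.87 (SE 0.11, adjusted p = 0.000582 by limma). For Fzd3, a receptor with known roles in planar cell polarity and axon guidance, control levels were 7.00, 7.15 and 7.37 and injured levels 6.37, 6.47 and 5.79. The groups were apart, with the third injured array furthest down. Fzd3 fell by 0.96 (SE 0.18, adjusted p = 0.00425 by limma), yet of its 6 probe sets 4 were not called, and the mean over its probe sets changed by -0.28, which was not called.

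Fzd4, known as the receptor for the non-Wnt ligand norrin as well, gave 6.24, 6.50 and 6.45 in control and 5.86, 6.02 and 6.00 at 48 hpi. The highest injured array stayed below the lowest control. Fzd4 fell by 0.44 (SE 0.10, adjusted p = 0.0103 by limma), and a further probe set fell by 0.72. Fzd7 gave 6.50, 6.62 and 6.68 in control and 5.91, 6.41 and 6.06 at 48 hpi. Replicate 2 at 48 hpi came close to the controls without reaching them. Fzd7 fell by 0.47 (SE 0.14, adjusted p = 0.0253 by limma). The call was lost without control replicate 2 or 3 or without 48 hpi replicate 1 or 3, with adjusted p of up to 0.0871. It was also lost for the mean of probe sets, at a common median, with equal hybridization controls and by the Benjamini-Hochberg adjusted t-test. The other Fzd7 probe set, within background, changed by 0.06.

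Lrp6, a co-receptor that is phosphorylated when Wnt binds, was lower by a small margin. Its log2 levels were 8.15, 8.47 and 8.44 in control and 7.92, 8.07 and 8.07 at 48 hpi. The 2 highest injured arrays lay just under the lowest control array. Lrp6 fell by 0.34 (SE 0.11, adjusted p = 0.0456 by limma). The call was lost when p-values were adjusted over all probe sets (0.0583) and without any 1 of 5 arrays, all except control replicate 1. The other Lrp6 probe set changed by -0.04 and was not called, and the mean of both was not called. With the arrays scaled to equal hybridization controls, which moved the median of all genes to 0.32, the change was 0.01. The related Lrp5 changed by 0.33 (95% interval -0.02 to 0.67) and was not called.

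The remaining Frizzled genes were not called on the probe set used. Fzd6, a receptor of planar polarity in skin, had a higher mean at 48 hpi without overlap, with a change of 0.33 and an adjusted p of 0.0569 by limma. Fzd1 and Fzd5 changed by 0.06 and -0.00, and a dimmer Fzd5 probe set was called higher at 0.36. Fzd2 changed by -0.21, and both of its other probe sets were called lower, at -0.44 and -0.73.

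**Figure D2:**
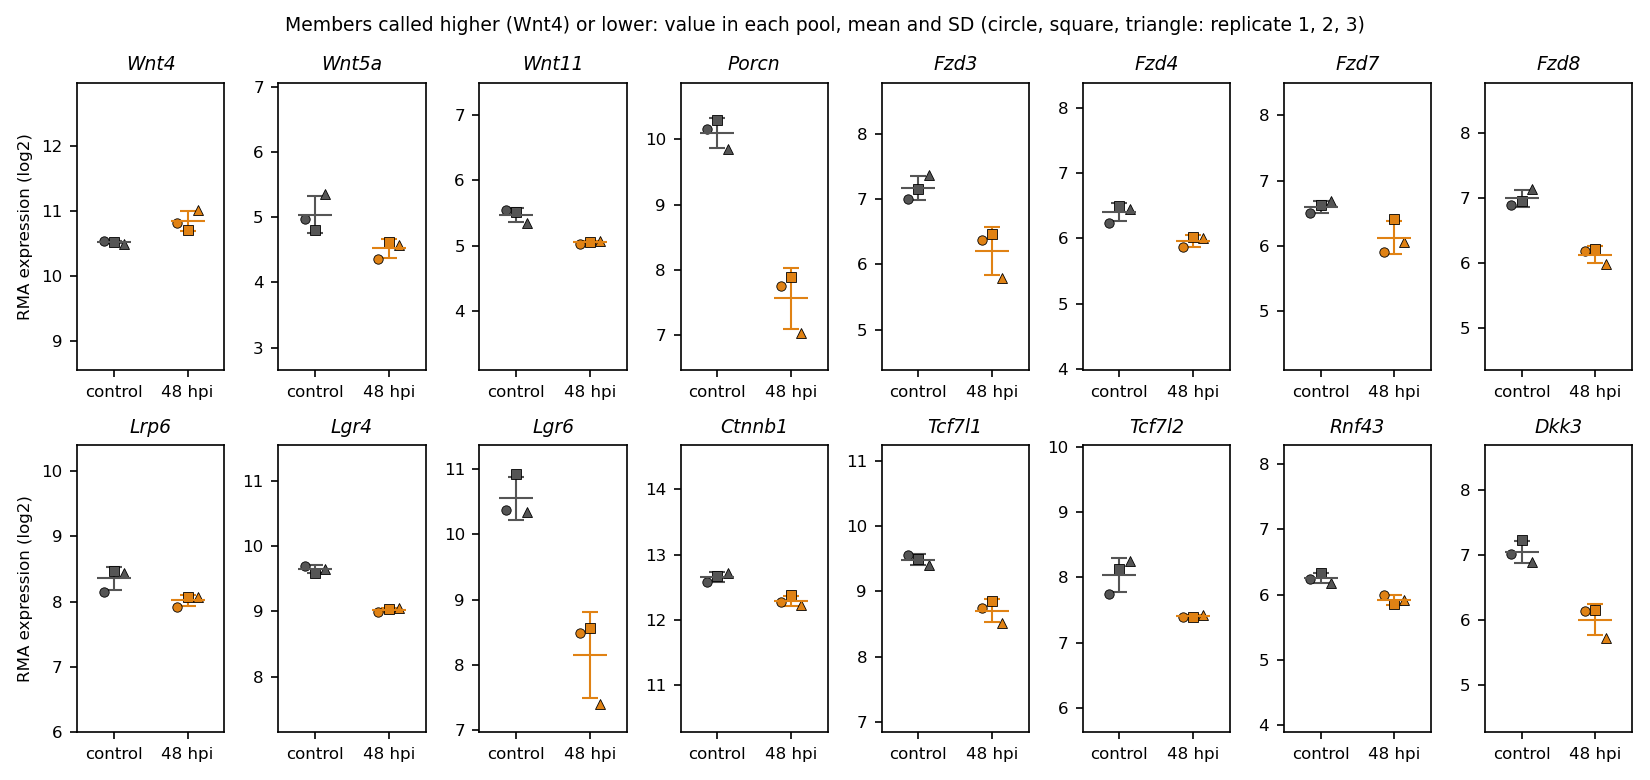
Log2 level of the 16 called Wnt pathway genes on each array (vertical axis, log2, with the same span in each panel), control and 48 hpi side by side, with circles, squares and triangles for replicates 1, 2 and 3, long lines for group means and bars for the SD. The arrays of the groups do not overlap in any panel. The triangle is the lowest injured point for 7 of the 15 lower genes, Porcn, Lgr6, Fzd3 and Dkk3 among them. The circle is the lowest for 7 as well.

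Of the 10 measured intracellular genes, 3 were lower (30%, against 17.5% of all genes) and none higher, with a median change of -0.22. At an unadjusted p below 0.05, 0 were higher and 5 lower, and the methods' t-test with Benjamini-Hochberg adjustment gave 1 higher and 2 lower. Ctnnb1 encodes beta-catenin, which carries the signal to the nucleus and also joins cadherins at cell junctions. Its log2 levels were 12.58, 12.67 and 12.72 in control and 12.27, 12.38 and 12.23 at 48 hpi. The injured arrays were below the controls without overlap, though the difference was small. Ctnnb1 fell by 0.36 (SE 0.09, adjusted p = 0.0123 by limma), which is 1.28-fold, and its other 2 probe sets changed by -0.36 and -0.20 and were not called.

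The DNA-binding partners of beta-catenin that could be measured above background were both lower. Tcf7l1, which mostly acts as a repressor of Wnt targets until beta-catenin displaces it, gave 9.56, 9.50 and 9.40 in control and 8.74, 8.86 and 8.52 at 48 hpi. All injured arrays were lower than all controls. Tcf7l1 fell by 0.77 (SE 0.11, adjusted p = 0.00103 by limma), and a further probe set fell by 0.81. Tcf7l2, which encodes the main Tcf factor of intestinal epithelium, gave 7.75, 8.13 and 8.25 in control and 7.40, 7.40 and 7.42 at 48 hpi. The injured arrays were nearly equal, and control replicate 1 was closest to them. Tcf7l2 fell by 0.64 (SE 0.13, adjusted p = 0.00591 by limma). Of its 3 other probe sets 1 was called lower (-0.57) and 2 were not called. Lef1, the factor of the family induced in many Wnt-driven tissues, stayed within background in both groups.

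The destruction complex and Dishevelled genes were not called on the probe sets used. Gsk3b, the kinase that marks beta-catenin for degradation, had control levels of 9.64 to 9.71 and injured levels of 9.13 to 9.52. Its change was -0.31 (95% interval -0.57 to -0.05, adjusted p = 0.0608 by limma), and its other 5 probe sets were all called lower, at -0.33 to -1.02. Apc, a scaffold of the complex, changed by 0.12 on the probe set used and by -0.69 on another, which was called lower. The scaffold gene Axin1 changed by 0.26 (95% interval -0.00 to 0.51) on the probe set used and by -0.25 on its other probe set, each without overlap between the groups and neither called. Dvl1, Dvl2 and Dvl3, whose products relay the signal from Frizzled receptors, changed by -0.20, 0.05 and 0.14.

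Among antagonists and feedback genes, 2 of 8 were lower (25%, near the 17.5% of all genes), and the median change was -0.21. By limma none was higher, either after adjustment or at an unadjusted p below 0.05, and none by the methods' t-test with Benjamini-Hochberg adjustment. Dkk3 encodes a secreted protein of the Dickkopf family that, unlike its relatives, has no settled action on Lrp co-receptors. Its log2 levels were 7.01, 7.23 and 6.89 in control and 6.14, 6.15 and 5.73 at 48 hpi. The groups were well apart, and the third injured array was the lowest. Dkk3 fell by 1.03 (SE 0.14, adjusted p = 0.000975 by limma), 2.04-fold, and its other probe set fell by 0.80. Rnf43, a ubiquitin ligase that removes Frizzled receptors and is itself a target of the pathway, gave 6.24, 6.33 and 6.18 in control and 6.00, 5.85 and 5.92 at 48 hpi. Injured arrays were lower without overlap. Rnf43 fell by 0.32 (SE 0.09, adjusted p = 0.0209 by limma), and the call was lost without control replicate 2 or 48 hpi replicate 2, with adjusted p of up to 0.0829. Its change was 0.02 with equal hybridization controls.

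Axin2, a feedback inhibitor widely read as a reporter of canonical signalling, was not called. Its control levels were 5.35, 5.29 and 5.13 and its injured levels 4.87, 5.08 and 5.22, so the groups overlapped. The change was -0.20 with a 95% interval of -0.46 to 0.07 and an adjusted p of 0.223 by limma. Znrf3, the ubiquitin ligase related to Rnf43, changed by -0.09, and Nkd1, which binds Dishevelled, changed by -0.15. Sfrp1, a secreted Frizzled-related protein that binds Wnts, changed by -0.31 without overlap between the groups and with an adjusted p of 0.0858 by limma. Its other probe sets above background changed by -0.26, -0.07 and 0.09, each with overlap. None of its 5 probe sets was called. The secreted antagonists Sfrp2 and Wif1 were within background in both groups.

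**Figure D3:**
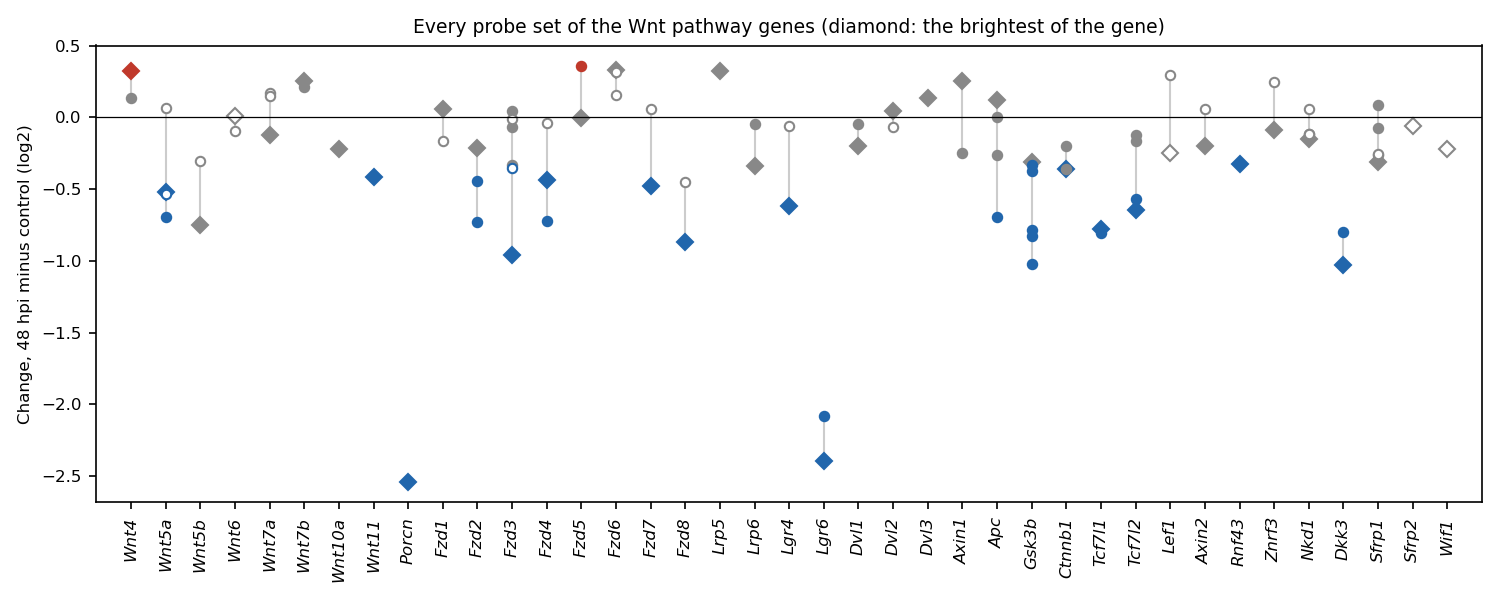
Change at 48 hpi minus control (vertical axis, log2) for each of the 94 probe sets of the 39 measured genes. Diamonds mark the brightest probe set of a gene, which was the one used. Blue, red and grey stand for lower, higher and not called over all probe sets. Both probe sets of Lgr6, Tcf7l1 and Dkk3 were lower, whereas those of Fzd3 and Apc were split between lower and not called.

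With all probe sets tested together, 30 of the 94 member probe sets were lower and 2 higher, while 13.9% of all 45037 probe sets were lower and 14.5% higher. The 2 called higher belong to Wnt4 and Fzd5. Of 31 members with more than 1 probe set, 13 had a call on the brightest probe set, and for 3 of these, Lgr6, Tcf7l1 and Dkk3, every probe set was called the same way. Another 4 members, Fzd2, Fzd5, Apc and Gsk3b, had a call on another probe set but not on the brightest. Without control replicate 3, 19 member probe sets were called lower.

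Among other genes of the pathway, 83 of 85 listed had a value, of which 16 were lower and 7 higher, with a median change of -0.08. The lower share, 19.3%, is near the 17.5% of all genes. The counts fell to 7 lower without control replicate 2, and to 10 lower and 4 higher without control replicate 3. In the nucleus and cytoplasm, 7 of 20 genes were lower and 4 higher. Bcl9, a co-activator that binds beta-catenin, fell by 0.66, and Csnk1e, a kinase that acts on Dishevelled and Lrp proteins, fell by 0.39. Ctnnbip1, whose product blocks the binding of beta-catenin to Tcf factors, rose by 0.64, and the co-repressor Tle4 rose by 0.50. Of 16 other ligand and secretion genes, 1 was lower, Wnt9a by 0.28. Wls, the carrier of Wnts to the cell surface, was chosen after its values were seen because it acts after Porcn: its change was -0.42 with an adjusted p of 0.0699. Of 8 other receptor genes, Kremen1, a receptor for Dickkopf proteins, was lower by a log2 change of -0.36. Of 16 other antagonists, limma called 0; at an unadjusted p below 0.05, 1 was higher and 2 lower, and the methods' t-test with Benjamini-Hochberg adjustment called 0.

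Of 14 planar polarity genes, 2 were higher and 3 lower. These shares, 14.3% and 21.4%, are near the 19.4% and 17.5% of all genes. The core polarity gene Vangl1 rose by 0.56 and its scaffold partner Scrib rose by 0.51. Invs and Ankrd6, both of which interact with Dishevelled, fell by 0.48 and 0.46. The ciliogenesis gene Intu, named to complete the count after its value was seen, fell by 0.47.

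A list of 17 established targets of beta-catenin shares Axin2, Lef1, Nkd1, Rnf43 and Znrf3 with the members. It held 5 lower genes and 1 higher, with a median change of -0.20. The shares were 29.4% lower and 5.88% higher, against 17.5% and 19.4% of all genes. Cd44, a hyaluronan receptor, fell by 0.45, the AP-1 subunit gene Jun fell by 0.71, and Ascl2, a transcription factor of intestinal stem cells, fell by 0.40. Tnfrsf19, a receptor of the tumour necrosis factor family, and the cell cycle gene Ccnd1 are named after their values were seen, to complete the count: Tnfrsf19 fell by 0.97 and Ccnd1 rose by 0.45. Several of these genes have other inputs besides Wnt.

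**Figure D4:**
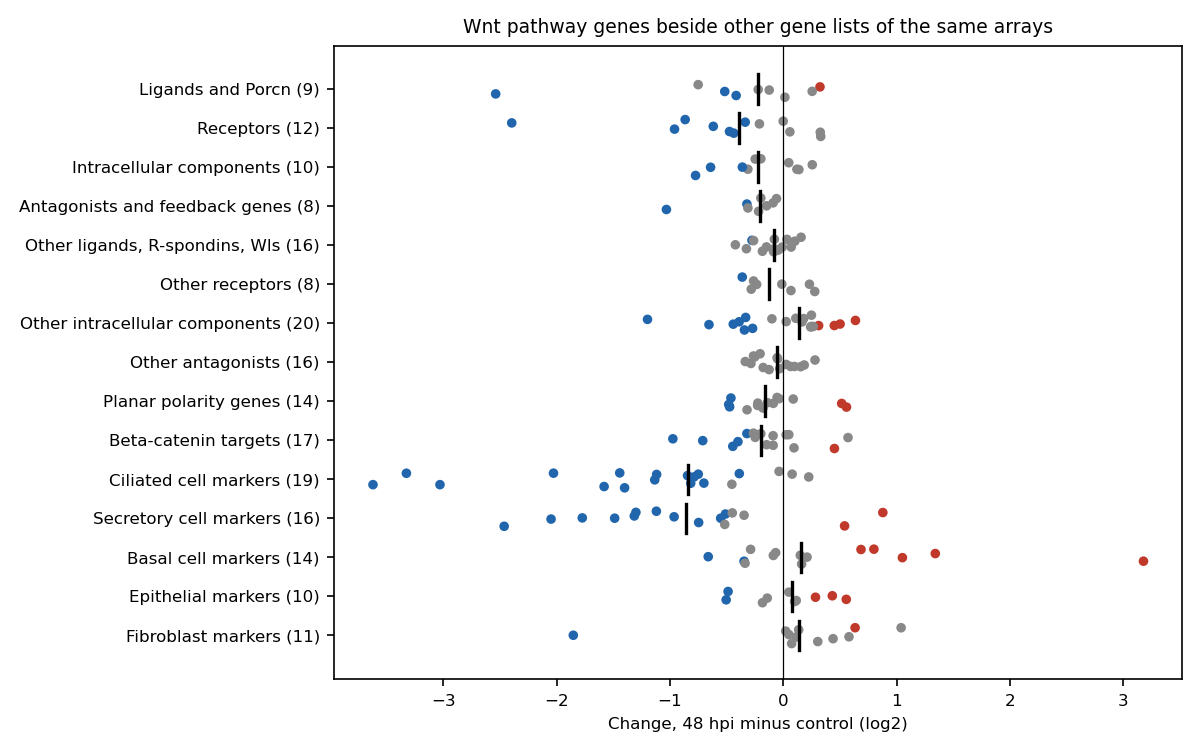
Change at 48 hpi minus control (horizontal axis, log2) of each gene in the 4 subgroups of members, in the other pathway lists and in 5 marker lists, with blue, red and grey for lower, higher and not called, bars for list medians and the number of genes in brackets. The receptor genes have a median of -0.39, the ciliated cell markers one of -0.85 and the secretory markers one of -0.86.

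How the arrays were scaled moved the level against which all these changes are read. Hybridization controls had a mean log2 level of 11.68 on control replicate 1 and 11.15 and 11.23 on the other control arrays. At 48 hpi it was 10.90 to 11.14. Equalizing them moved control replicate 1 the most, so the spread within groups changed along with the reference level. Shifting the arrays to equal hybridization controls moved the median change of all genes from -0.02 to 0.32, and 84% of all calls were then higher, against 52.5% as deposited and 63.5% with arrays at a common median. On that scale the median member change was 0.12, with 4 members lower and 5 higher. Of the 15 members called lower, 13 still had a change below 0, with Lrp6 and Rnf43 at 0.01 and 0.02. Such a shift moves the change of every gene by the same amount. A gene's place relative to the median of all genes therefore cannot alter. All 15, and 28 of the 39 members, lay below that median on either scale for this reason, which is no separate support. The directions above are thus relative to the deposited normalization.

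**Figure D5:**
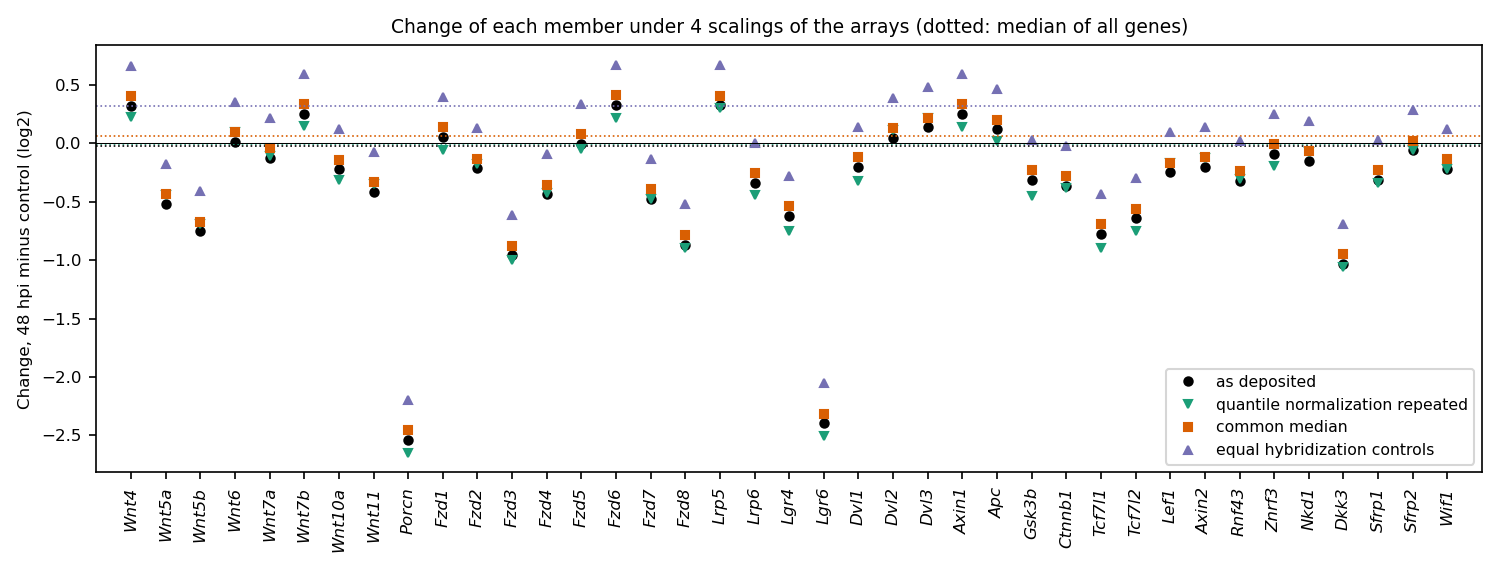
Change at 48 hpi minus control (vertical axis, log2) of the 39 measured Wnt pathway genes under 4 scalings of the arrays, with symbols of 1 shape and colour for each scaling and a dotted line for the median of all genes in each. With equal hybridization controls that median moves to 0.32 and every member moves up by the same amount. The 28 of 39 members below the median are thus necessarily the same as on the deposited scale.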

How the data were processed

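Tracheal epithelium was profiled on Affymetrix mouse arrays, 3 per group. The deposited values are log2 levels from robust multi-chip analysis (RMA), which the authors ran in Partek 6.5 after amplifying the RNA with MessageAmp Premier; the submitters' notes also name Affymetrix Expression Console 1.1. Whether the epithelial arrays were normalized alone is not given in the sources used here. RMA assumes like distributions of signal on all arrays. The number of arrays limits the precision, and no detection calls were used. The mesenchymal samples were not analysed here. For the arrays, the paper selected genes by analysis of variance and fold change over epithelium and mesenchyme. That fit needs the mesenchymal samples and was not repeated. The methods' t-test named here is the unpaired t-test, which the paper gives as its default where no other test is stated. It is not the paper's test of the arrays.

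Probe sets were named through the array annotation, and all 39 members matched RefSeq by Entrez ID. A gene was read from its brightest probe set by mean over both groups, which gave 18193 genes, and all 45037 probe sets other than controls were tested in a second fit. Control and 48 hpi arrays were tested against each other in R 4.3.3 by limma 3.58.1, without a block and with lmFit and eBayes at their defaults, and p-values were adjusted by Benjamini-Hochberg over all genes or all probe sets, with a threshold of 0.05. Background was taken from 79 probe sets for chemosensory receptors. The code of the fit was run on simulated data with independent noise and few changed genes. These arrays differ from that setting, so the run checks the code and not the calls. Figures were made in Python 3.11.15 using matplotlib 3.10.9.

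The members and lists were chosen with earlier results of these data known. Values on each array are given for members that were called, had no overlap between groups and exceeded background; other pathway genes are named by the smallest p among those called, up to 4 a list, and Tcf and Lef motifs were searched in RefSeq promoters. Exceptions are named in the text, and Axin2, which was not called, and the marker Lyz2 are also given array by array. Alternatives were a mean-variance trend, robust eBayes, the methods' t-test, 3 other scalings, a filter on dim genes, 3 other choices of probe set, a replicate block, array weights, each array left out and a threshold of 0.01.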

Additional observations from a re-analysis of the deposited data

How the results depend on the processing

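Of the 16 called members, 3 kept direction and call in all 20 alternatives, with ranges of -2.71 to -2.20 for Porcn, -2.61 to -2.02 for Lgr6 and -1.11 to -0.69 for Dkk3. Of the 23 members not called, 12 were called in some alternative. Of the 15 members called lower, 11 stayed called whichever array was left out. Uncalled changes near 0 turned sign in several alternatives, and with equal hybridization controls, which moved all genes alike, 14 members rather than 29 had a change below 0. Counting those called on the deposited values or in the alternative, direction changed in 5 cases. Apc changed by -0.21 as the mean of its probe sets and by -0.69 on the probe set with the smallest p, on which Fzd5 changed by 0.36. With equal hybridization controls Lrp6 was at 0.007 and Rnf43 at 0.022. The causes were not tested.

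With equal hybridization controls 4 members were lower: 1 of the ligand group (Porcn), 2 receptors, 0 intracellular genes and 1 antagonist or feedback gene. Also lower were 6 probe sets, 2 other pathway genes and 20 marker genes. The higher counts were 5 members, 6 probe sets, 15 other pathway genes and 21 marker genes. At a common median 1 antagonist or feedback gene and 10 other pathway genes were lower, and 4 members, 5 probe sets and 13 other pathway genes were higher. Repeated quantile normalization gave 5 intracellular genes lower and 0 members, 1 probe set and 4 other pathway genes higher. At an adjusted p below 0.01, 9 members, 4 receptors, 1 antagonist or feedback gene, 14 probe sets, 4 other pathway genes and 17 markers were lower, and 0 members, 0 probe sets and 4 other pathway genes were higher.

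The methods' t-test with Benjamini-Hochberg adjustment gave 10 members, 4 receptors, 17 probe sets, 6 other pathway genes and 14 markers lower and 1 probe set higher; unadjusted at 0.05 it gave 16 members lower and 2 higher, with 6 probe sets higher. The mean of probe sets gave 5 intracellular and 10 other pathway genes lower and 0 members higher. The probe set with the smallest p gave 5 intracellular genes lower and 2 members higher, array weights 5 intracellular genes lower and 1 probe set higher, and the mean-variance trend or the filter on dim genes 2 members higher. Without the s probe set, Tcf7l2 changed by -0.17 and was not called.

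Leaving out 1 array gave 12 to 15 members lower and 0 to 1 higher. Lower in the ligand group were 2 to 4 genes, always with Porcn. Lower elsewhere were 5 to 7 receptors, 3 to 4 intracellular genes and 1 to 2 antagonist or feedback genes. Probe sets ranged from 19 to 27 lower and 0 to 2 higher, other pathway genes from 7 to 15 lower and 4 to 7 higher, and markers from 24 (without control replicate 2 or 3) to 35 lower and 9 to 12 higher.

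Replicate numbers are shared by the groups. Deviations of same-numbered arrays correlated at 0.032 to 0.159, and those of differently numbered arrays at -0.141 to 0.044. Of the 6 arrays, 5 correlated best with their own number. The labels do not say whether the numbers pair the pools, and the main fit used no block. With the replicate number as a block 16 members were lower and 1 higher: Wnt4 was not called (adjusted p = 0.0554 by limma), and Wnt5b (0.0393) and Fzd6 (0.0336) were. The limma p-values set the difference between groups against the spread between pools, 3 in each group, moderated across all genes. With no detection calls, small changes of members near background, Wnt5a and Wnt11 among them, are limited by signal.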
